A study of Mus musculus with 12 samples.

Results

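The regions described here were the accessible chromatin peaks assigned to Dio2 and to 6 genes through which thyroid hormone acts, namely Thra, Thrb, Thrsp, Ncoa1, Ncoa2 and Ncor1, in mouse fat with and without the chromatin remodeling subunit BAF60a (gene Smarcd1). A peak was a member when the deposited table gave it the symbol of 1 of these 7 genes. This rule found 87 of the 58558 peaks in brown adipose tissue (BAT) and 39 of the 39558 peaks in inguinal white adipose tissue (iWAT). Accessibility was measured by ATAC-seq, in which the transposase Tn5 cuts open DNA, and all 12 samples came from C57BL/6 mice. The BAT groups were 3 flox mice, which carried flox/flox Smarcd1 alleles, and 3 AKO mice, which carried the same alleles and a Cre driven by the adipocyte promoter of Adiponectin. Each BAT sample was whole tissue from 1 mouse, and neither age nor housing temperature was given for these mice in the sources used here. The iWAT groups were 3 flox and 3 AKO samples from mice of 6 to 8 months whose chamber was cooled stepwise to 10 °C and held there for 7 more days. The inguinal pads were pooled by genotype before they were divided, so the 3 iWAT samples of a genotype are aliquots of 1 pool, and p-values in iWAT cover only the spread between aliquots. Cre acts in adipocytes alone, so immune, endothelial and other cells of both tissues keep the gene.

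Thyroid hormone is released mainly as thyroxine, which the deiodinase encoded by Dio2 converts into the active hormone triiodothyronine inside the cell. Brown fat is known for inducing Dio2 during cold through noradrenaline and cAMP, which raises active hormone locally and feeds forward on Ucp1. The active hormone binds the receptors encoded by Thra and Thrb, which sit on DNA with RXR partners. Without hormone the receptors hold corepressors such as NCoR1 (Ncor1), and with hormone they bind p160 coactivators such as SRC-1 (Ncoa1) and SRC-2 (Ncoa2). Thrsp encodes Spot 14, a hormone-induced protein of lipid synthesis.

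The sequences below show where the Dio2 differences lay, and all come from RefSeq sequence of build GRCm38 (mm10). The Dio2 promoter, chr12:90738989-90739288 on the minus strand, is printed in the direction of transcription. The others are 300 bases of the plus strand around the midpoint of a BAT peak. They belong to the 3 Dio2 peaks with the smallest limma p among those where no AKO value reached the flox range. Of these peaks 2 lay downstream of Dio2 and 1 in its intron 1. Capitals mark matches to the receptor hexamer AGGTCA, to a direct repeat of 2 such hexamers 1 base (DR1) or 4 bases (DR4) apart with up to 2 mismatches, and to the cAMP response element TGACGTCA with up to 1 mismatch, on either strand. A hexamer inside a repeat counts under both names.
Dio2 promoter, chr12:90738989-90739288: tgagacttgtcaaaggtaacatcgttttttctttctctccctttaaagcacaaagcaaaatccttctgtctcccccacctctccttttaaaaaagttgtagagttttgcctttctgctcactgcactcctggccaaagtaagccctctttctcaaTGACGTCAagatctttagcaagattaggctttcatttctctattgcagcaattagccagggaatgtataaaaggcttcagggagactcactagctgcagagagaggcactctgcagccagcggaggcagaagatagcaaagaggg
Dio2 downstream, chr12:90643986-90644285: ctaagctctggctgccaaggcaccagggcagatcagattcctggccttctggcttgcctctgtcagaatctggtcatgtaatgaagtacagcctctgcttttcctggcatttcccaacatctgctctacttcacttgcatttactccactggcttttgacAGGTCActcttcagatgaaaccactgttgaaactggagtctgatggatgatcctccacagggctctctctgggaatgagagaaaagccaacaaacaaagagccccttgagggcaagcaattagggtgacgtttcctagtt
Dio2 downstream, chr12:90590758-90591057: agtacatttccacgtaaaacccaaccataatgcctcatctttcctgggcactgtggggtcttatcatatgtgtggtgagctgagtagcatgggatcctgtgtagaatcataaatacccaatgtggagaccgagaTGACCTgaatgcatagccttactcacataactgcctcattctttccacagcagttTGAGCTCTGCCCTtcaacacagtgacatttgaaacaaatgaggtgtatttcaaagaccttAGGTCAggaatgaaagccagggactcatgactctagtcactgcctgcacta
Dio2 intron 1, chr12:90735489-90735788: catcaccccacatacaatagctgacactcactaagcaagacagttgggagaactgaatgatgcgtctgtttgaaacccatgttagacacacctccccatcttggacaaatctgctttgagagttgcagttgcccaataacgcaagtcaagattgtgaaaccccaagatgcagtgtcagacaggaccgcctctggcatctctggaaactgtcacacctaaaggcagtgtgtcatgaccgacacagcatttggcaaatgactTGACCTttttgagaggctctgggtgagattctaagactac

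The capitals of the promoter are an exact cAMP response element at chr12:90739126-90739133, 88 bases upstream of the RefSeq start. An exact match stood in 1.79% of 32851 RefSeq promoters of this length. The chr12:90643785-90644485 window held 1 hexamer, and the chr12:90590638-90591176 window held 2 hexamers and a DR1 match. The intron 1 window held 1 hexamer, read on the minus strand. Over the 16 Dio2 windows of BAT, 5 held the hexamer (22.9% of all BAT windows did), 3 a cAMP element (8.64%), 1 a DR1 (6.41%) and 0 a DR4 (4.41%). The windows do not cover the whole of the wider peaks. The promoter's cAMP element lies in the Dio2 start peak but outside its window, so it is not among the 3. A DR4 match at chr12:90643879-90643894 likewise lay inside the chr12:90643785-90644485 peak but outside its window. These matches describe letters only.

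Reads within peaks numbered 6336670 to 27500738 per sample in BAT and 4066720 to 6691161 in iWAT, and values are given as reads divided by the authors' size factors, called normalized reads below. In BAT the 3 flox libraries held 10115267 to 27500738 reads and the AKO libraries 6336670 to 13821838. Principal component 1 (PC1) carried 55.6% of the variance and followed depth. Its scores were -98.2, -41.8 and 14.6 in flox and -0.62, 112 and 13.5 in AKO. PC1 was thus not independent of genotype either, and the parts of depth and genotype in it were not tested. The study's fit for BAT held this component as a covariate, and so does the limma fit used here (log2 of normalized reads plus 1, Benjamini-Hochberg adjustment over all peaks of the table, threshold 0.1). Smarcd1 had 2 peaks in BAT, and which exons are floxed is not given in the sources used here, so whether either lies in the deleted part was not settled. The start peak had a log2 fold change of 0.19 (SE 0.20). The intron 4 peak held 136, 201 and 185 normalized reads in flox and 23.7, 57.9 and 26.9 in AKO (log2 fold change -2.98, SE 0.27), whereas in iWAT Smarcd1 had a peak at its start alone (0.11, SE 0.15). By limma 0% of all peaks passed the threshold in either table, so 0 of 58558 in BAT and 0 of 39558 in iWAT, while an unadjusted p under 0.05 was reached by 5301 and 5943 peaks. DESeq2 on the whole reads called 174 peaks in BAT and 420 in iWAT, and edgeR called 84 and 1846. On simulated BAT data limma with PC1 recovered none of the log2 fold changes of size 1 put in and some of those of size 2. DESeq2 with PC1 recovered some of size 1 and most of size 2. Both fits also called unchanged peaks, DESeq2 more of them than limma. The simulated libraries differed in depth but were drawn without the PC1 pattern of the real ones. How far these outcomes bear on the limma counts of 0 and the DESeq2 calls in BAT was therefore not tested.

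Mean accessibility at Dio2 was lower in AKO than in flox brown fat at all 16 of its peaks, of which 1 passed the test by the count models and 0 by limma. Their log2 fold changes ran from -1.15 to -0.18 with a median of -0.49, beside a median of 0.01 over all BAT peaks, of which 49.1% had a value below 0. The highest AKO value lay under the lowest flox value at 8 of the 16 peaks and the lowest AKO value over the highest flox value at 0, against 8.84% and 8.77% of all BAT peaks. An unadjusted limma p under 0.05 was found at 8 of the 16, against 9.05% of all peaks, and 0 passed after adjustment (smallest adjusted p 0.417). Neighboring peaks of 1 gene come from the same animals and are not independent of each other. Fewer adipocytes in a sample and less accessibility per adipocyte cannot be told apart in whole tissue.

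Summed over the 16 Dio2 peaks, flox mice held 3032, 3230.0 and 3315 normalized reads and AKO mice 2198, 2111 and 2055. The means were 3193 ± 145 and 2121 ± 71.9 (SD, n = 3 each), and the genotypes did not overlap. No other member showed such a separation of its sums in BAT, and the share of all genes that do was not computed. Thrb, with 38 peaks, had sums of 5388 to 5940.1 in flox and 4840.2 to 6215 in AKO, and Thrsp had 2725 to 3033 and 2331 to 3071.

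**Figure D1:**
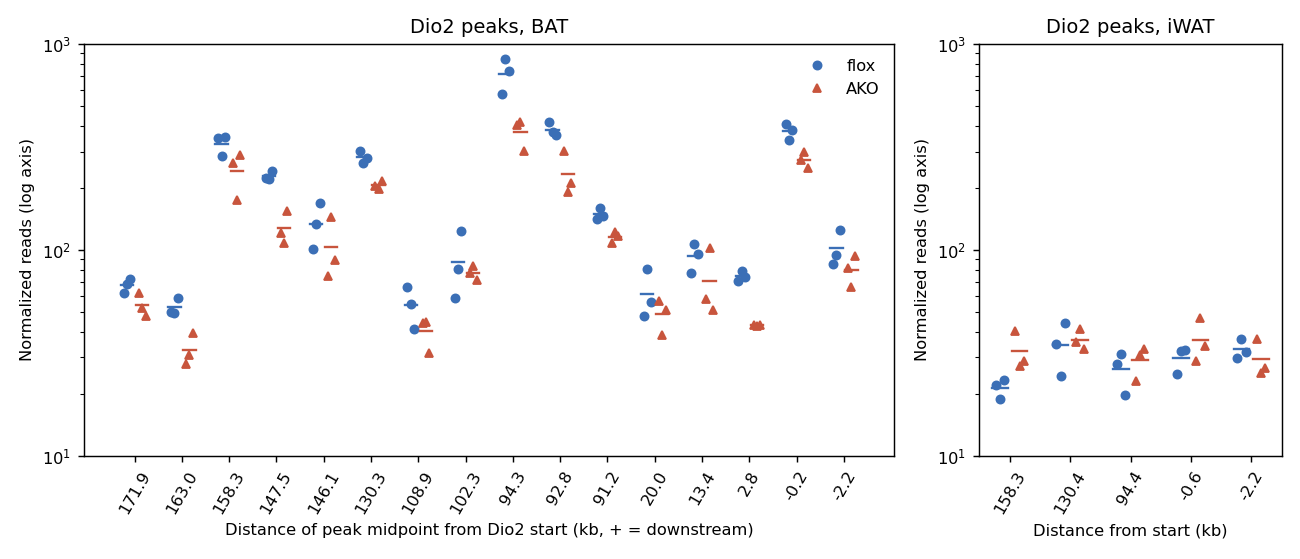
Normalized reads (log axis) at each Dio2 peak by sample, with BAT on the left and iWAT on the right, ordered by distance of the peak midpoint from the annotated start in kb (positive is downstream). Points are samples (circles flox, triangles AKO) and bars are means of 3, and the peak 94.3 kb downstream holds the highest values in BAT while the iWAT values lie between 18.9 and 46.8 (the tables were normalized separately).

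The peak with the largest difference, chr12:90643785-90644485, lay 94.3 kb downstream of the Dio2 start and overlapped no other protein-coding gene. Its values were 573, 841 and 739.9 normalized reads in the flox mice and 402, 417 and 303 in the AKO mice. All 3 AKO mice lay below the lowest flox mouse. The log2 fold change was -1.15 (SE 0.25), a 2.22-fold lower level, with a limma p of 0.00218 and an adjusted p of 0.436. The count models called it, with adjusted p = 0.000141 in DESeq2 and 0.0193 in edgeR, and among the 87 member peaks it was the only 1 that either of these called, where 0.217% of BAT peaks were called lower by DESeq2 and 0.114% by edgeR. With DESeq2 it stayed under the threshold when any 1 of the 6 libraries was left out (adjusted p 0.000298 to 0.0991, the highest without flox 3). It was also among the most accessible member peaks, at the percentile 96.2 of all BAT peaks in normalized reads per kb.

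2 further peaks stood within 3 kb of it. The peak at chr12:90645349-90645828 held 417, 372 and 359.6 normalized reads in flox and 301, 191 and 210.1 in AKO, and that at chr12:90646987-90647409 held 142, 159 and 146 against 108, 122 and 117. In both the genotypes were separate, with log2 fold changes of -0.47 (SE 0.22) and -0.43 (SE 0.18) and limma adjusted p of 0.582 and 0.548. All 3 peaks were lower in AKO, with the largest difference at the most distal of them.

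Farther out, the peak at chr12:90590638-90591176, 148 kb downstream, gave 224, 221 and 242 normalized reads in flox and 121, 108 and 154 in AKO. The groups were again separate, with a log2 fold change of -0.76 (SE 0.22) and a limma adjusted p of 0.476. DESeq2 called it when PC1 was left out (adjusted p = 0.0569, a fit that called 0.517% of BAT peaks lower), but not with PC1 (0.336). Its neighbor at chr12:90592093-90592553 held 100.8, 134 and 168 in flox and 74.2, 145 and 89.2 in AKO. Here AKO 2, the library with the fewest reads, lay above flox 1 and flox 2, and the log2 fold change of -1.02 (SE 0.18, adjusted p 0.417) became -0.41 without the PC1 covariate. The peak at chr12:90607883-90608375 held 304, 264 and 281 against 205, 197 and 215, with no overlap and a log2 fold change of -0.38 (SE 0.18).

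Of the remaining 6 distal peaks 1 was separate. At chr12:90575304-90575509 the values were 50.2, 49.5 and 58.2 normalized reads in flox and 27.8, 30.9 and 39.3 in AKO, with no overlap (log2 fold change -0.73, SE 0.23). At chr12:90566433-90566735 they were 61.7, 68.0 and 72.4 against 61.9, 52.1 and 48.0, and at chr12:90579850-90580417 they were 347, 284 and 353 against 263, 174 and 289. In each of these last 2, 1 AKO mouse reached into the flox range. At chr12:90629467-90629678 the values were 65.8, 54.7 and 41.4 against 44.3, 44.4 and 31.7, at chr12:90636029-90636330 58.5, 80.5 and 123 against 77.3, 83.1 and 71.0, and at chr12:90718306-90718649 47.5, 80.5 and 55.6 against 56.7, 38.6 and 50.9. Those 3 overlapped widely, with log2 fold changes of -0.27, -0.54 and -0.18.

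At the gene itself, the peak over the start, chr12:90737990-90739253, held 408, 341 and 380.3 normalized reads in flox and 273, 297 and 249 in AKO. No AKO mouse reached the lowest flox mouse, and the log2 fold change was -0.50 (SE 0.20, limma p 0.0383, adjusted p 0.535). This peak spans the GENCODE start at 90738438 and the RefSeq start at 90739038, 600 bases apart, as well as the cAMP response element printed above. The closest values within groups were those of the intron 1 peak, chr12:90735508-90735769, with 70.5, 79.1 and 73.7 in flox and 43.3, 42.5 and 43.2 in AKO (log2 fold change -0.79, SE 0.18, p 0.00277, adjusted p 0.436). It lay 2.8 kb into the gene, and DESeq2 gave it no adjusted p because of its low count. The peak in exon 2, chr12:90724768-90725398, held 76.8, 107 and 95.7 against 57.7, 102 and 50.9, where AKO 2 lay inside the flox range (log2 fold change -0.94, and -0.46 without PC1). The peak 2.17 kb upstream, chr12:90740486-90740737, held 85.7, 94.6 and 125 against 81.4, 65.7 and 93.1, and the groups overlapped (log2 fold change -0.36, SE 0.27).

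**Figure D2:**
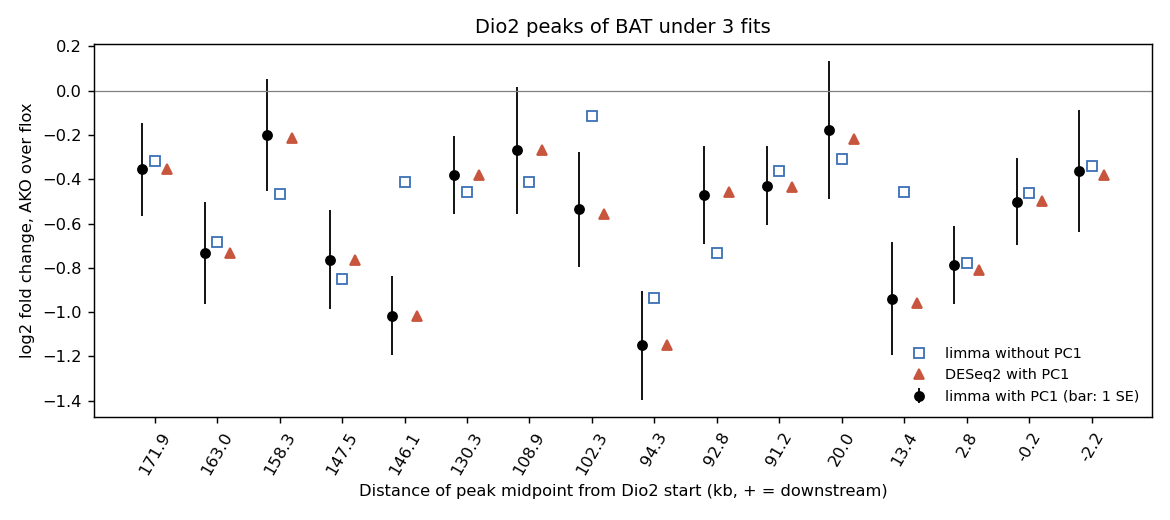
Log2 fold change of AKO over flox at the 16 Dio2 peaks of BAT under 3 fits, limma with PC1 (black, bar 1 SE), limma without PC1 (open squares) and DESeq2 with PC1 (triangles). All values lie below 0 in each fit, and the fits differ most at the peaks 146 kb and 102 kb downstream and in exon 2.

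The direction of Dio2 was the same in the fits with and without the covariate. Without PC1 all 16 log2 fold changes were again below 0, from -0.93 to -0.11 with a median of -0.46. Between libraries of like depth, flox 3 (10115267 reads) against AKO 1 and AKO 3 (12886038 and 13821838 reads), all 16 peaks were lower in AKO with a median of -0.53, where the median over all BAT peaks was -0.0041. This comparison has flox 3 as its only flox mouse, was chosen after the data had been seen and has no test. The part of depth in the Dio2 values was not tested. With a library left out in turn, 14 to 16 of the 16 peaks stayed lower, with 14 when flox 3 was left out.

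Markers of brown adipocytes moved with the genotypes too. Peaks of Ucp1, Cidea, Prdm16, Ppargc1a and Zic1, 57 in all, summed to 17146 to 21289 normalized reads in flox and 11946 to 13009 in AKO, and 51 of them had a log2 fold change below 0. The 41 peaks of the adipocyte genes Adipoq, Plin1, Pparg, Fabp4 and Lipe summed to 17552 to 18726 and 12077 to 16240. Of these 41, 34 were below 0. The endothelial list (26 peaks of Pecam1, Cdh5, Kdr, Tie1 and Tek) summed to 2249 to 2508 and 2224 to 2650, and that of muscle (5 peaks, with none at Ckm or Myod1) to 409 to 472 and 405 to 606. The immune genes Ptprc, Csf1r, Cd3e and Cd79a had 0 peaks in BAT. Hoxc8, Hoxc9, Hoxc10, Hoxa9 and Tbx15, which mark the inguinal depot, gave 11 peaks with 1170.5 to 1363 and 1395 to 1601. The part of the lower brown and adipocyte sums in the Dio2 values was not tested.

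The 5 BAT peaks of other genes most like the Dio2 start peak across the 6 samples, among 34136 whose mean reached 100 normalized reads, were assigned to Dus1l, Yaf2, E2f7, Mtx3 and Mknk2, with Pearson r of 0.987 to 0.991. With 6 samples that share 2 genotypes and the same depth pattern this is a description, and 78 peaks had r of at least 0.95. Their own log2 fold changes ran from -0.54 to -0.30. Of the other 15 Dio2 peaks, the r with the start peak ran from 0.13 at chr12:90636029-90636330 to 0.90 at chr12:90607883-90608375.

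**Figure D3:**
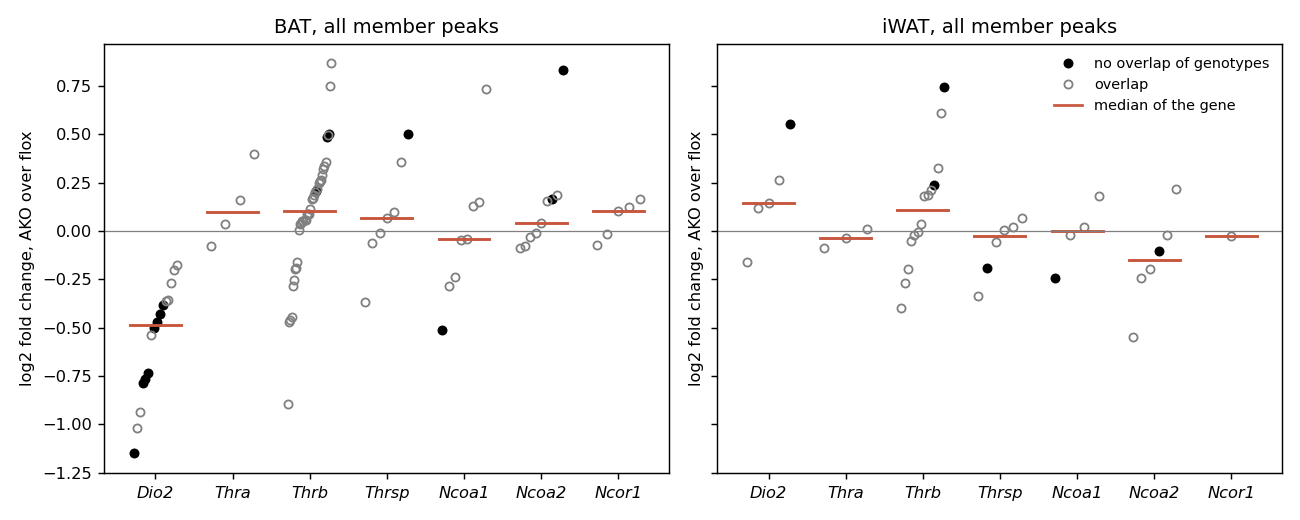
Log2 fold change of AKO over flox for every member peak by gene in BAT (limma with PC1) and iWAT (limma). Filled points are peaks whose genotypes do not overlap, open points overlap, and the bar is the median of the gene, which is -0.49 for Dio2 in BAT and between -0.04 and 0.11 for the other 6 genes there.

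The receptor genes gave another picture in BAT. Thrb, with 38 peaks over its long introns and upstream, had log2 fold changes from -0.89 to 0.87 with a median of 0.10, and Thra, with 4 peaks, from -0.08 to 0.40. Of these 42 peaks 0 were separate and lower, and 3, all of Thrb, were separate and higher, the latter near the share of all BAT peaks (8.84% separate and lower, 8.77% separate and higher). The start peak of Thrb, chr14:17659074-17661460, held 1516, 1258 and 1211 normalized reads in flox and 1281, 937 and 1164 in AKO, a log2 fold change of 0.04 (SE 0.18) that became -0.24 without PC1. The start peak of Thra, chr11:98741645-98742412, held 338, 300 and 259 against 312, 236 and 390.5, with a log2 fold change of 0.40 (SE 0.21, adjusted p 0.612) and of 0.04 without PC1. It was also the Thra peak with the smallest p. Both start peaks overlapped between genotypes.

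The smallest limma p of Thrb was at chr14:18020595-18021027 in intron 4, where the log2 fold change was -0.89 (SE 0.24, p 0.00662, adjusted p 0.444). Its values were 41.8, 74.6 and 82.8 in flox and 49.5, 104 and 42.2 in AKO, which overlap, and without PC1 the log2 fold change was -0.08. The 3 separate Thrb peaks were higher in AKO. They lay at chr14:17632788-17633375, 27.8 kb upstream of the start, with 177, 163 and 188 against 205, 220.2 and 211, and in introns 1 and 2. At chr14:17810288-17810571 the values were 40.2, 50.2 and 37.5 against 57.7, 73.4 and 61.4, and at chr14:17859898-17860114 they were 42.8, 59.9 and 60.8 against 88.7, 67.6 and 79.6. Their log2 fold changes were 0.21, 0.49 and 0.50 with PC1 and 0.27, 0.58 and 0.53 without. None passed the limma threshold, and the sign of 16 of the 38 Thrb values differed between the fits with and without PC1.

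Thrsp, the hormone-induced lipogenic gene, had some of the most open chromatin of the members. Its peak 1.19 kb upstream of the start, chr7:97418671-97419161, stood at the percentile 99.7 of all BAT peaks in reads per kb and held 755, 619 and 717 normalized reads in flox and 678, 550.5 and 726 in AKO. The start peak, chr7:97417198-97417860, held 774, 692 and 693 against 716, 429 and 559, and the intron 1 peak, chr7:97414532-97414798, 353, 223 and 179.8 against 252, 166 and 225. The genotypes overlapped at all 3, with log2 fold changes of 0.07, -0.06 and 0.36 that read -0.10, -0.37 and -0.19 without PC1. The start peak without PC1 was thus nearer to the Dio2 start peak (-0.46) than with it.

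Upstream of Thrsp, the peak at chr7:97420574-97421255 held 353, 465 and 587 normalized reads against 389, 408 and 461, that at chr7:97424912-97425188 158, 149 and 120.3 against 124, 127 and 133, and that at chr7:97427940-97428410 195, 217 and 237 against 252, 143 and 218. All 3 overlapped. The peak downstream of the gene, chr7:97411254-97412540, was the exception, with 321, 361 and 499 in flox and 534, 508 and 747 in AKO. There each AKO mouse was above each flox mouse, with a log2 fold change of 0.50 (SE 0.30, limma adjusted p 0.661) and of 0.60 without PC1.

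The coactivator genes Ncoa1 (8 peaks) and Ncoa2 (9 peaks) and the corepressor gene Ncor1 (5 peaks) had medians of -0.04, 0.04 and 0.11. Their start peaks overlapped between genotypes. That of Ncoa1, chr12:4475783-4477781, held 625, 621 and 552 normalized reads in flox and 663, 670.2 and 613 in AKO, and that of Ncoa2, chr1:13372353-13374681, 1515, 1321 and 1215 against 1326, 1041 and 1452. That of Ncor1, chr11:62456524-62458756, which also overlaps Pigl, held 1058, 961 and 852 against 953, 720.4 and 929.7. The log2 fold changes were 0.15 (SE 0.18), 0.18 (SE 0.18) and 0.12 (SE 0.17), and those of Ncoa2 and Ncor1 were -0.09 and -0.15 without PC1.

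Within introns, 2 Ncoa2 peaks were separate and higher in AKO and 1 Ncoa1 peak was separate and lower, among 17 peaks of these genes, where 8.77% and 8.84% of all BAT peaks were. The Ncoa2 peak at chr1:13324864-13325129 held 41.8, 28.1 and 45.3 against 60.8, 69.5 and 81.6 (log2 fold change 0.83, SE 0.29, p 0.0240, adjusted p 0.507). That at chr1:13255334-13255649 held 35.0, 56.9 and 64.7 against 72.2, 119.7 and 73.9 (0.16, and 0.76 without PC1). The Ncoa1 peak at chr12:4469247-4469471 held 46.0, 59.1 and 54.3 against 42.3, 40.6 and 35.5 (-0.51, SE 0.20, adjusted p 0.536). The smallest p of Ncoa1 belonged to chr12:4430306-4430752, with 91.4, 85.0 and 46.6 against 109, 57.9 and 73.9, which overlap (0.73, SE 0.26, p 0.0236, and 0.12 without PC1). For Ncor1 it belonged to chr11:62431416-62432733, with 143, 149 and 175 against 188, 174 and 181 (0.16, SE 0.19, p 0.415), where flox 3 lay between the AKO mice.

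Over the 71 BAT peaks of the 6 genes other than Dio2, 1 was separate and lower and 6 were separate and higher. These counts are 1.41% and 8.45%, against 8.84% and 8.77% of all peaks. An unadjusted limma p under 0.05 was found at 6 of the 71, where 9.05% of all BAT peaks had one. Of the 71, 24 had a log2 fold change below 0 with PC1 and 34 without, and 30 changed sign between these fits, where Dio2 changed sign at 0 of 16.

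**Figure D4:**
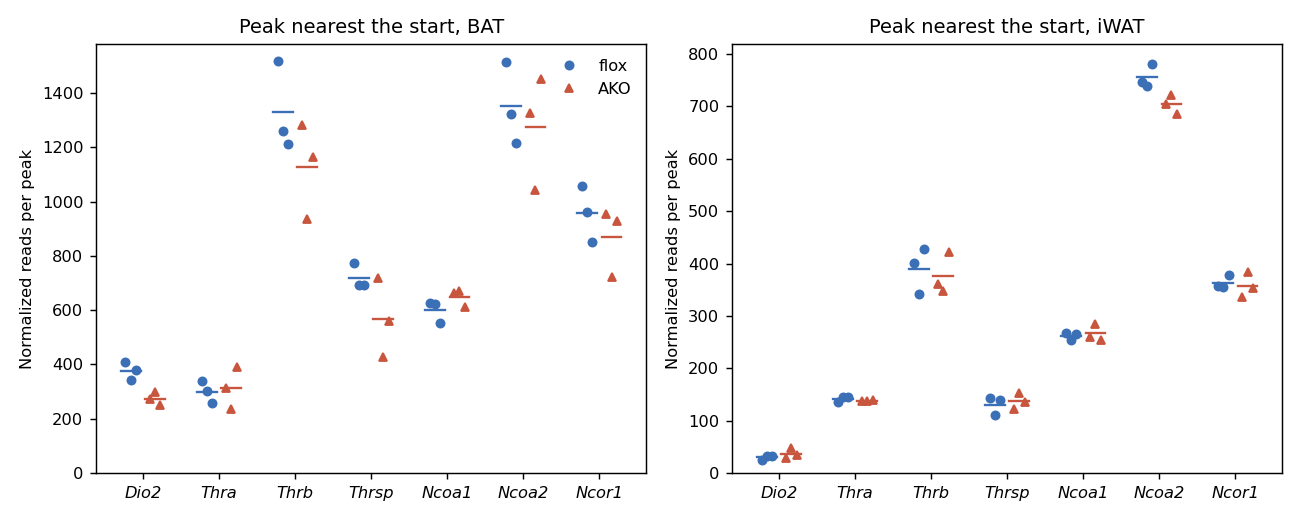
Normalized reads per peak at the peak nearest the start of each gene in BAT and iWAT, by sample (circles flox, triangles AKO, bars the means of 3). In BAT the Dio2 genotypes separate while those of the other 6 genes overlap, and in iWAT those of Ncoa2 alone separate.

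In iWAT of cold-acclimated mice, Dio2 had 5 peaks, all of which overlapped (by at least 1 base) a BAT peak, and none was lower in AKO beyond the spread of aliquots. Of the 39 member peaks 20 had a log2 fold change below 0, of the 5 Dio2 peaks 1, against 50.1% of all iWAT peaks. The Dio2 sums were 139.7, 143 and 151 normalized reads in flox and 165, 171 and 156 in AKO. These sums did not overlap and were higher in AKO, opposite to BAT. Among the other 6 members Ncoa2 alone had separate sums in iWAT, 991 to 1053 in flox and 936 to 975 in AKO. The share of all genes with separate sums was not computed here either. Levels per kb stood at the percentiles 15.2 to 40.8 of all iWAT peaks, where the 5 overlapped BAT peaks stood at 50.5 to 96.2 of theirs. The most distal, chr12:90580005-90580204, held 22.1, 18.9 and 23.2 in flox and 40.3, 27.4 and 28.9 in AKO. Each AKO aliquot was above each flox aliquot there, as at 10.6% of all iWAT peaks (10.3% were separate and lower), with a log2 fold change of 0.55 (SE 0.18, limma p 0.0182, adjusted p 0.235). It was 1 of 2 member peaks with an unadjusted p under 0.05, against 15% of all iWAT peaks.

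The iWAT peak within the BAT peak of largest difference, chr12:90643902-90644101, held 27.8, 31.1 and 19.8 normalized reads in flox and 23.1, 30.8 and 33.1 in AKO. The genotypes overlapped, with a log2 fold change of 0.15 (SE 0.21). At chr12:90607881-90608219 the values were 34.9, 24.5 and 43.9 against 35.7, 41.1 and 33.1 (0.12, SE 0.22). Near the start, chr12:90738897-90739117 held 24.9, 32.2 and 32.7 against 28.8, 46.8 and 34.2 (0.26, SE 0.21), and chr12:90740544-90740748 held 29.9, 36.7 and 31.8 against 36.9, 25.1 and 26.7 (-0.16, SE 0.18). The former ends 9 bases short of the cAMP response element, which lies inside the wider BAT peak. Each of these values rested on 17 to 51 reads, and the difference between tissues was not tested because the tables were normalized separately.

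Marker sums differed little between the iWAT genotypes for adipocyte genes (18 peaks, 2472 to 3111 normalized reads in flox and 2507 to 2740.0 in AKO), brown genes (17 peaks, 1064 to 1297 and 1134 to 1281), inguinal genes (8 peaks, none at Hoxc9, 874 to 977 and 846 to 927) and muscle genes (1 peak, 112 to 154 and 127 to 152). They were separate and lower in AKO for endothelial genes (12 peaks, none at Tie1, 766 to 855 and 671 to 739.9) and immune genes (3 peaks at Ptprc and Csf1r, none at Cd3e or Cd79a, 211 to 241 and 128 to 176). Their part in the member values of iWAT was not tested.

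Among the other members in iWAT, Thrb had the smallest p. Its intron 2 peak chr14:17894894-17895127 held 18.5, 22.2 and 25.0 normalized reads in flox and 40.3, 32.0 and 39.6 in AKO, with no overlap and a log2 fold change of 0.74 (SE 0.17, limma p 0.00247, adjusted p 0.151). DESeq2 and edgeR gave adjusted p of 0.345 and 0.191. The overlapping BAT peak had a log2 fold change of 0.04. The peak 27.8 kb upstream of Thrb, chr14:17632880-17633402, held 102, 116 and 97.3 against 129, 119 and 123, so that it was separate and higher in AKO in both tissues, the only 1 of 38 pairs of overlapping member peaks of which this could be said. 0 pairs were separate and lower in both, and 0 were separate in opposite directions. The shares over all overlapping pairs were not computed, while 8.77% of all BAT peaks and 10.6% of all iWAT peaks were separate and higher.

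The iWAT start peaks lay close together between genotypes. Thrb (chr14:17660122-17661489) held 401, 341 and 429 normalized reads against 361, 347 and 421, Thra (chr11:98741647-98742118) 135, 145 and 145 against 137, 137 and 140.1, and Ncor1 (chr11:62456685-62458682, its single iWAT peak) 356, 355 and 379 against 337, 384 and 353. Ncoa1 (chr12:4476301-4477638) held 267, 255 and 266 against 260.5, 284 and 254. Those of Ncoa2 (chr1:13372339-13374611) were separate, with 746, 738 and 782 in flox and 705, 722 and 685 in AKO, at a log2 fold change of -0.10 (SE 0.12, limma adjusted p 0.736). For the other 4 the log2 fold changes lay between -0.05 and 0.02, with SE of 0.12 to 0.15.

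The iWAT peaks with the smallest p of Thra, Ncoa1 and Ncoa2 were intronic. Thra (chr11:98754326-98755162) held 155, 131 and 139 against 122, 136 and 143, Ncoa1 (chr12:4386132-4386888) 99.8, 84.50 and 92.1 against 73.8, 84.48 and 74.8, and Ncoa2 (chr1:13255253-13255613) 52.7, 68.9 and 74.9 against 70.3, 48.0 and 48.1. Of these Ncoa1 alone was separate, and its AKO 2 value lay just under flox 2. Limma adjusted p were 0.810, 0.446 and 0.621.

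Thrsp kept all but 1 of its BAT peaks in iWAT. Its start peak chr7:97417308-97417765 held 143, 110.1 and 139 normalized reads against 122, 153 and 135, and the downstream peak chr7:97411220-97412687 held 351, 276 and 409 against 302, 401 and 289.8. The genotypes overlapped at both, whereas the downstream peak was separate in BAT. Upstream, chr7:97418712-97419144 held 178, 162 and 183 against 111, 145 and 164 (log2 fold change -0.34, SE 0.17, adjusted p 0.412), and chr7:97420857-97421206 held 105, 93.39 and 106 against 93.36, 91.3 and 81.3 (-0.19, SE 0.13). The latter was separate by a small margin. At chr7:97424983-97425152 the values were 42.8, 56.7 and 40.5 against 43.8, 60.5 and 38.5, and at chr7:97428087-97428376 40.6, 57.8 and 54.2 against 58.8, 44.5 and 49.2, with log2 fold changes of 0.02 and 0.0048.

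Other genes of the pathway, from a list of 36 that supply hormone, partner the receptors or respond to them, had 257 peaks in BAT at 32 of the genes and 146 in iWAT at 31. By limma 0 passed in either table, with an unadjusted p under 0.05 at 46 (17.9%) and 16 (11.0%), against 9.05% and 15% of all peaks, and the medians were -0.07 and -0.0034. The hormone-responsive genes Klf9, Me1, Fasn, Acaca, Gpd2, Atp2a2 and Ucp1 had 65 BAT peaks, 16 of them separate and lower and 3 separate and higher, against 8.84% and 8.77% of all BAT peaks, as for the groups that follow. DESeq2 called 5 of the 65 lower (0.217% of all peaks) and edgeR 4 (0.114%). The 3 Ucp1 peaks named below were among the calls of both. The coactivator genes, which include Ppargc1a, had 58 BAT peaks, 9 separate and lower and 0 higher, and the corepressor complex genes 66, with 5 each way. Transporters and other supply genes (29 peaks) had 5 lower and 2 higher, receptor partners (25 peaks) 1 and 3, and genes of DIO2 protein turnover (14 peaks) 0 and 2.

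The 3 pathway peaks with the smallest limma p in BAT were all of Ucp1, the uncoupling protein. At its start, chr8:83289980-83290774, the values were 1556, 1247 and 816 normalized reads in flox and 363, 315 and 285 in AKO (log2 fold change -1.52, SE 0.27, limma adjusted p 0.417, DESeq2 9.4e-09). Its intron 5 peak, chr8:83297198-83297774, and downstream peak, chr8:83298730-83300383, had log2 fold changes of -1.89 and -1.93. The groups did not overlap at these peaks, and the differences were larger than those at Dio2. In iWAT the 3 were intronic peaks of Me1 (malic enzyme) and Crebbp (the coactivator CBP) and a peak upstream of Klf9, with log2 fold changes of -0.73 (SE 0.13), -0.94 (SE 0.17) and -1.57 (SE 0.42) and limma adjusted p of 0.149, 0.149 and 0.186. The genotypes were separate at each, and edgeR called those of Crebbp (adjusted p = 0.0920) and Klf9 (0.0282). The edgeR fit of iWAT called 2.52% of all peaks lower and DESeq2 0.569%, but of the 39 member peaks in iWAT each called 0.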

How the data were processed

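ATAC-seq of 12 samples in 4 groups of 3 (BAT and iWAT, flox and AKO) was used, each sample merging 2 Tn5 reactions. Per the study's methods and the submitters' processing notes, the authors mapped 38-bp read pairs to mm10 with BWA 0.7.17-r1188, removed duplicates with Picard 2.8.14, kept autosomal reads, called broad peaks with MACS2 2.1.1.20160309, merged peaks found in at least 2 of 3 samples of a genotype, counted reads with bedtools 2.27.1 and gave each peak the nearest gene. A nearest gene need not be the gene a distal peak acts on. The values deposited by the authors are a signal, reads per peak divided by a size factor (DESeq2 1.20.0), 1 table per tissue. All values gave whole reads within 0.01 when multiplied back. The deposited fold changes and p-values of the authors were not used.

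Groups came from the sample labels. AKO was tested against flox within each table by limma 3.58.1 on log2(value + 1), with PC1 as a covariate in BAT alone as in the study's methods, Benjamini-Hochberg adjustment over all peaks and a threshold of 0.1. A peak was called separate where every AKO sample lay on 1 side of every flox sample, since exact permutation of 3 against 3 cannot go below p = 0.1. DESeq2 1.42.0 and edgeR 4.0.16 on the recovered reads, other pseudocounts (0.1 and 10), another scaling, a minimum of 10 reads, fits with and without PC1 or a replicate block, each sample left out, a threshold of 0.05 and peaks within 10 kb of the gene were alternatives. DESeq2 leaves an adjusted p empty for peaks of low count, and those were kept empty. The fits were also run on simulated data drawn without the PC1 pattern, and the outcome of edgeR there is not given. Deviations of same-numbered samples from their group means correlated at 0.49, 0.06 and -0.24 in BAT and -0.06 to -0.04 in iWAT. In BAT flox 3 and AKO 2, which differ in number, reached 0.48. These values do not settle whether the numbers pair samples, and the main fits left them unpaired. The 3 BAT samples of a genotype came from separate mice and differed in depth as well.

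Named in full were all Dio2 and Thrsp peaks and, for other members, the peak nearest the start and that with the smallest limma p in each table, plus separate peaks, added after their values were seen. Positions against genes come from GENCODE vM21 basic (GRCm38), starts being those of protein-coding transcripts, and motifs were searched in 300 bases around each peak midpoint on both strands. RefSeq promoters were found for 5 of the 7 members, and Thra and Ncoa2 had no entry. A further gene of the immune marker list is not reported here, and its peaks are in no sum. The members, lists and named peaks were chosen with earlier results of these data known.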

Additional observations from a re-analysis of the deposited data

Results flagged for a closer look

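The summed reads of the Dio2 peaks were flagged because the genotypes were separate in opposite directions in the 2 tissues. How many genes outside the members do so was not counted. In iWAT the peak starting at 90580005 had means of 21.4 in flox and 32.2 in AKO, within mean sums of 144.9 and 164.1. Of the 5 iWAT peaks 1, starting at 90740544, was lower in AKO (32.8 and 29.6). In BAT all 3 AKO sums lay below all 3 flox sums, with a log2 ratio of the means of -0.59, and in iWAT all 3 AKO sums lay above the flox sums, with 0.18. The difference between the tissues was not tested. The sums hold 16 peaks in BAT and 5 in iWAT, the tables were normalized separately, and the iWAT samples are aliquots of 1 pool per genotype.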

How the results depend on the processing

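All 16 Dio2 peaks of BAT stayed lower in AKO under every alternative run except the replicate block with PC1 (15) and left-out libraries (14 to 16). The choice of test decided calls. By limma 0 member peaks of BAT were lower past the threshold, by DESeq2 1, by edgeR 1 and by DESeq2 without PC1, added after the data had been seen, 2. For the other pathway genes in BAT these counts were 0, 5, 4 and 11 lower, with 1 higher in the last, and edgeR called 4 lower in iWAT. Over all peaks the calls were 0 by limma in each tissue, 174 and 420 by DESeq2 and 84 and 1846 by edgeR. With a minimum of 10 reads, pseudocounts of 0.1 and 10 or scaling by total reads limma again called 0 member peaks, and the stricter threshold of 0.05 could not add to 0. Taking instead all peaks over a member's gene body or within 10 kb of it, whatever symbol they carry, gave 74 peaks in BAT and 40 in iWAT. Of the 74, 5 were separate and lower and 5 separate and higher, against 8.84% and 8.77% of all BAT peaks. Of these lower peaks 3 are among the 9 member peaks. Of the 40, 4 were separate and lower and 1 separate and higher, against 10.3% and 10.6% of all iWAT peaks. The higher peak is among the 3 member peaks. With each library left out in turn, the separate member peaks numbered 10 to 22 lower and 8 to 15 higher in BAT (9 and 6 with all libraries). Most were lower without AKO 1 and most higher without flox 3. In iWAT they numbered 4 to 6 lower and 3 to 6 higher (3 and 3 with all libraries). A peak separate with all libraries stays so when 1 is left out, so these counts cannot fall. The shares over all peaks with a library left out are not given here, so these counts cannot be judged against them. In iWAT 1 to 2 of the 5 Dio2 peaks were then lower (2 without flox 2), with medians of 0.0756 to 0.31.

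The fit without PC1 turned the sign in BAT at the start peaks of Ncoa2 (-0.093), Ncor1 (-0.15) and Thrb (-0.24), and at the Thrsp peaks starting at 97414532 (-0.19), 97418671 (-0.10) and 97427940 (-0.12). The replicate block without PC1 gave the same values, and DESeq2 without PC1 gave -0.084, -0.14, -0.24, -0.23, -0.092 and -0.064 in that order. The replicate block with PC1 turned Dio2 at 90718306 (0.095), the Thrb start peak (-0.0482) and Thrsp at 97424912 (0.082), and no block changed a limma call. In iWAT PC1 carried 33.8% of the variance and followed the genotypes, so a fit with it cannot tell PC1 and genotype apart. It gave 4 lower Dio2 peaks of 5 (1 without it), a median of -0.53 for Dio2 and of -0.29 for all members (0.15 and -0.0037 without it), and turned Dio2 at 90580005 (-0.036), 90607881 (-0.53) and 90738897 (-1.51), Ncoa1 at 4386132 (0.20) and 4476301 (-0.18), Thra at 98754326 (1.25), Thrb at 17660122 (0.95) and 17894894 (-0.27), and Thrsp at 97418712 (1.11), 97424983 (-1.80) and 97428087 (-2.09).

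Leaving out 1 library turned the sign of 9 of 37 BAT peaks and 9 of 21 iWAT peaks, those named by the rule or separate, none of which had passed the limma threshold. In BAT the ranges were -0.36 to 0.25 for Dio2 at 90579850, -0.662 to 0.028 at 90629467, -0.36 to 0.033 at 90718306 and -0.56 to 0.10 at 90740486, -0.026 to 0.13 for the Thrb start peak, and for Thrsp -0.29 to 0.18 at 97417198, -0.023 to 0.31 at 97418671, -0.23 to 0.12 at 97424912 and -0.15 to 0.53 at 97427940. In iWAT they were -0.10 to 0.31 for Dio2 at 90607881 and -0.036 to 0.30 at 90643902, -0.0269 to 0.0527 for Ncoa1 at 4476301, -0.075 to 0.019 for Ncor1 at 62456685, -0.14 to 0.020 for Thrb at 17660122, and for Thrsp -0.21 to 0.074 at 97411220, -0.047 to 0.15 at 97417308, -0.16 to 0.16 at 97424983 and -0.15 to 0.10 at 97428087. The iWAT values of Dio2 rest on 17 to 51 reads each and on 1 pool per genotype.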

Other observations

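Around the midpoints of the 87 member peaks of BAT, 25 windows of 300 bases held the receptor hexamer (22.9% of all BAT peaks), 3 a DR4, the spacing known for thyroid hormone receptors (4.41%), 4 a DR1 (6.41%) and 7 a cAMP response element (8.64%). In iWAT the counts of 39 were 11 (19.0%), 2 (3.72%), 2 (5.16%) and 3 (9.48%). The BAT peaks with a DR4 match were those at chr1:13324864-13325129 in Ncoa2 and at chr14:17445598-17445933 and chr14:17697543-17698228 at Thrb. The Ncoa2 peak, which was separate and higher in AKO in BAT, also held a cAMP element match that overlapped the DR4 match. At Thrsp the peak at chr7:97420574-97421255 held a DR1 match, found in the window of its iWAT counterpart as well. The window of the iWAT Dio2 peak at chr12:90643902-90644101 held a DR4 match at chr12:90643879-90643894. This match lies outside that iWAT peak and inside the wider BAT peak chr12:90643785-90644485, whose window, centred elsewhere, did not include it. The numbers of windows are small and no test was run.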
